A study of Arabidopsis thaliana with 6 samples.

Results

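The wild-type inflorescence of Arabidopsis thaliana was described across the transcript classes of a custom Agilent array built for long intergenic noncoding RNAs (lincRNAs). The description rests on the 3 wild-type arrays of a series of 6, and no value of the other 3 samples, which carry a mutation in RDR2, entered it. The wild-type plants were of the Col-0 ecotype, were 4 weeks old and carried no transgene or mutation named in the labels. Each sample was an inflorescence collection that mixed open flowers, buds and some very young siliques, from plants raised on half-strength MS medium or in a greenhouse, and the labels do not say which plants went into which sample. Total RNA, treated with DNase, was labelled with the dye Cy3 and hybridised to an array with 15013 probes besides its control spots. Of these probes, 3284 (21.9%) were well above background, by the scanner software's own call, on all 3 arrays, and are called detected below. A transcript class was read from the start of each target name: lincRNA units (13245 probes for 4499 units), miRNA precursors (331 probes for 173 precursors) and annotated loci (1428 probes for 479 transcripts of 405 loci). A further 9 probes, named for the promoters of TMM and SDC, belonged to no class.

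LincRNAs are transcripts from between genes that carry no long reading frame, and in plants most are made at low levels. miRNAs are cut by a Dicer enzyme from hairpins in longer precursor transcripts, so a probe for the precursor does not measure the mature small RNA. The annotated loci on this array join noncoding RNA genes with a small set of protein-coding genes that act in small-RNA pathways, light and clock signalling, and hormone responses. In a mixed organ such as the inflorescence, more cells of a type and more RNA per cell cannot be told apart. The labelled organ could not be checked against its defining genes, because none of the 24 listed genes of floral organ identity, tapetum or pollen had a probe on the array, nor had the 19 listed leaf, root and housekeeping genes.

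Signals are given as scaled signal, which is a probe's background-corrected intensity over the 75th percentile of the 3284 detected probes on the same array, times 100. A scaled signal of 100 therefore marked the 75th percentile of detected probes, and the percentile itself was 211, 177 and 212 intensity units on replicates 1, 2 and 3. The level of a transcript is the geometric mean over all its probes. A probe's signal also depends on how well that probe binds its target, so a high signal describes that probe and does not rank one transcript's abundance against another's. Replicates 1 and 2 shared a slide and a scan, whereas replicate 3 was on a second slide in a second scan, so that slide and sample cannot be told apart for replicate 3.

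Annotated loci were detected almost throughout, miRNA precursors in a minority of probes, and lincRNA units in a smaller minority. Of the lincRNA probes, 1911 of 13245 (14.4%, exact 95% interval 13.8 to 15.0%) were detected on all 3 arrays. The same held for 140 of 331 miRNA precursor probes (42.3%, 36.9 to 47.8%) and for 1233 of 1428 probes of annotated loci (86.3%, 84.5 to 88.1%). These shares lie below, above and far above the 21.9% of all probes. The intervals cover counting error only, and probes of one transcript share a target, so that they are not independent. LincRNA probes made up 88.2% of the array and 58.2% of the detected probes, miRNA precursor probes 2.20% and 4.26%, and probes of annotated loci 9.51% and 37.5%.

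The detected share of lincRNA probes differed most between arrays. It was 32.0%, 31.4% and 16.6% on replicates 1, 2 and 3, a mean of 26.7 ± 8.72% (SD, n = 3). For miRNA precursors it was 52.3%, 53.8% and 46.5% (50.9 ± 3.83%), and for annotated loci 88.9%, 89.9% and 88.9% (89.2 ± 0.606%). Replicate 3 was thus the low array for lincRNAs and, less so, for precursors, and equalled replicate 1 for annotated loci. The order of the 3 classes was the same on every array, and no array's value for a class overlapped the range of another class. Of the lincRNA probes 1715 were called on exactly 1 array and 1575 on exactly 2, while 8044 (60.7%) were called on none.

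**Figure D1:**
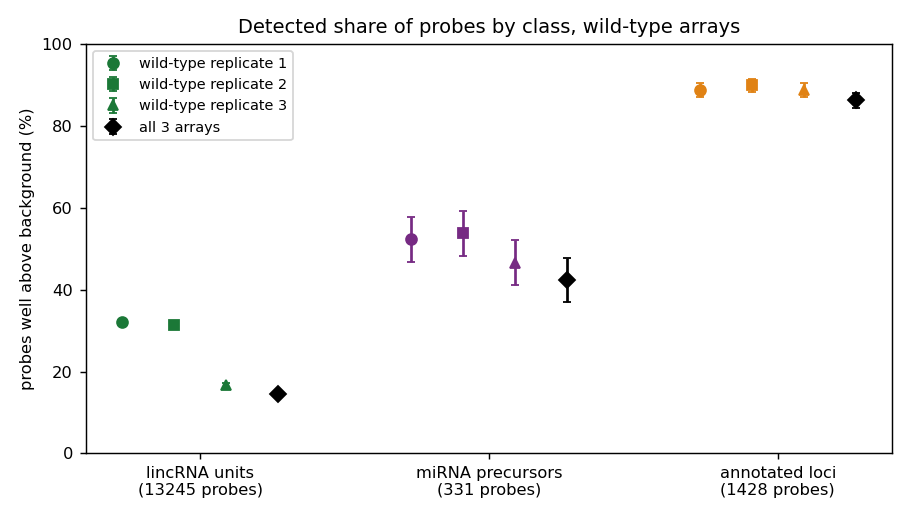
Share of probes well above background (percent, vertical axis) for lincRNA units, miRNA precursors and annotated loci, on wild-type replicates 1, 2 and 3 and on all 3 arrays together; bars are exact 95% binomial intervals. Annotated loci stay between 88.9% and 89.9% on every array, whereas the lincRNA share is 16.6% on replicate 3 and at least 31.4% on replicates 1 and 2.

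Detected lincRNA probes were also dim. Their median scaled signal was 12.8, with 25th and 75th percentiles of 7.09 and 28.0. Detected miRNA precursor probes had a median of 17.0 (7.67 to 35.4), and detected probes of annotated loci had a median of 111 (28.1 to 368). The medians on replicates 1, 2 and 3 were 15.2, 14.0 and 8.19 for lincRNAs, 18.7, 18.5 and 14.2 for precursors, and 110.8, 110.3 and 110.1 for annotated loci. The lincRNA and precursor medians overlapped across arrays, and those of the annotated loci lay above both on each array. The locus medians lie next to 100, where the scaling sets the arrays equal, so their closeness between arrays follows in part from the scaling. A scaled signal above 100 was reached by 166 lincRNA probes (8.69%), 11 precursor probes (7.86%) and 638 probes of annotated loci (51.7%). At the other end, 67.8% of detected lincRNA probes, 55.7% of precursor probes and 19.7% of locus probes lay under 20. The brightest probes of all were nevertheless lincRNA probes, which are described below.

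**Figure D2:**
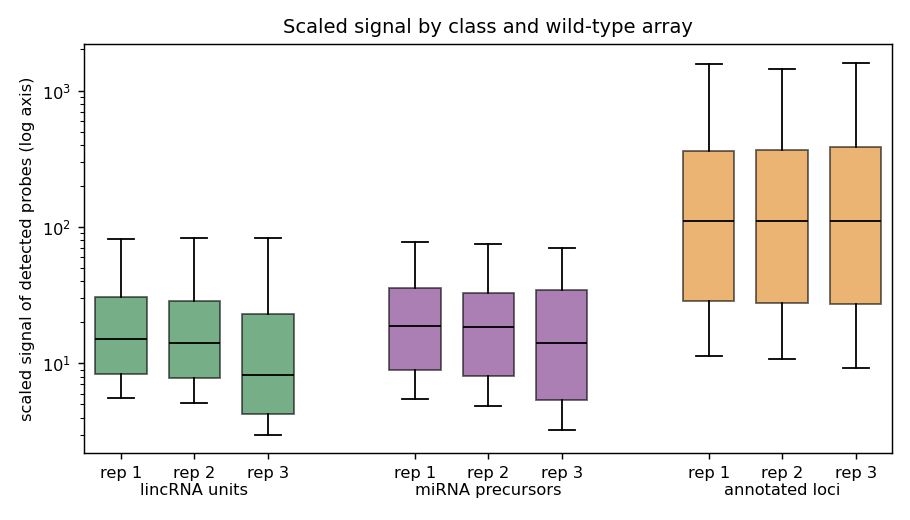
Scaled signal of the 3284 detected probes (log axis) by class and wild-type array; boxes span the 25th to 75th percentiles with the median as a line, and whiskers the 10th to 90th percentiles. The lincRNA median is 8.19 on replicate 3 and 15.2 and 14.0 on replicates 1 and 2, while the 3 medians of annotated loci lie between 110.1 and 110.8, next to the level of 100 at which the scaling sets the arrays equal.

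Most transcripts on the array had 3 probes, which allowed a check of whether the probes of one transcript were detected together. For annotated loci they were: of 474 transcripts with 3 probes, 374 had all 3 detected, 38 had 2, 29 had 1 and 33 had none. Of 4257 lincRNA units with 3 probes, 196 had all 3 detected, 213 had 2, 857 had 1 and 2991 had none. A single detected probe was thus the commonest form of detection for a lincRNA unit. For the 51 precursors with 3 probes the counts were 14, 2, 11 and 24.

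Counted over transcripts of any number of probes, at least 1 probe was detected for 1301 lincRNA units (28.9%), 89 precursors (51.4%) and 446 transcripts of annotated loci (93.1%). Every probe was detected for 202 units (4.49%), 62 precursors (35.8%) and 379 transcripts (79.1%). Detection of every probe is easier with fewer probes, and 66 of the 173 precursors had a single one. Among transcripts with 3 probes the shares were 4.60%, 27.5% and 78.9%. Without replicate 3 the counts with every probe detected were 268 units, 68 precursors and 381 transcripts. Among these fully detected transcripts the median level was 21.4 for lincRNA units, 18.6 for precursors and 127 for annotated loci. A level above 1000 was found for 5 lincRNA units, 2 precursors and 49 transcripts of annotated loci.

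Where several probes of a transcript were detected, the range of their signals had similar medians for lincRNAs and annotated loci. The highest over the lowest detected probe had a median of 2.18-fold over 414 lincRNA units, 1.55-fold over 37 precursors and 2.25-fold over 413 transcripts of annotated loci. The range exceeded 10-fold for 40 lincRNA units (9.66%), no precursor and 39 transcripts of annotated loci (9.44%). The widest was 511-fold, between probes of the cold-induced dehydrin gene COR47, whose 3 probes averaged 80.8, 1227 and 41299. What part of these spreads came from the binding of each probe was not tested. The range of a transcript can only widen as more of its probes are counted, and that number differed by class. All 3 probes were detected for 196 of the 414 lincRNA units, 14 of the 37 precursors and 374 of the 413 locus transcripts. The ranges of the classes are therefore not like for like.

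One probe measured on 3 arrays varied least for annotated loci. The median coefficient of variation (SD over mean) was 22.5% for lincRNA probes, 15.4% for precursor probes and 7.92% for locus probes. The classes also differed in signal, and the spread was larger at low signal. Under a mean scaled signal of 10 the 3 medians were 28.6%, 28.0% and 19.1%, and at 100 to 1000 they were 9.05%, 6.60% and 6.35%. Between the 2 arrays of the shared slide, over all signals, it was 8.37%, 6.78% and 4.95%. A median over 2 arrays is not on the same footing as one over 3. Log2 signals of replicates 1 and 2 correlated at 0.980 over the 1911 lincRNA probes, 0.988 over the 140 precursor probes and 0.996 over the 1233 locus probes. Replicate 3 correlated with replicates 1 and 2 at 0.905 and 0.911 for lincRNAs, 0.955 and 0.950 for precursors, and 0.991 and 0.991 for loci. These correlations run across probes, which are not independent replicates.

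Detection on all 3 arrays itself uses replicate 3, so replicate 3 was set against the other arrays over probes chosen by their calls on replicates 1 and 2 alone. Its signal over the geometric mean of replicates 1 and 2 had a median of 0.361 for 3340 lincRNA probes, 0.789 for 161 precursor probes and 0.982 for 1253 locus probes. Before scaling these ratios were 0.396, 0.866 and 1.08. Of the same probes, 57.2%, 87.0% and 98.4% were also called on replicate 3. Probes chosen by their calls on some arrays can be lower on another through that choice alone. With the same choice, replicate 1 over replicates 2 and 3 had medians of 1.18, 1.17 and 1.01 for the 3 classes, and replicate 2 over replicates 1 and 3 had 1.11, 1.04 and 1.00.

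The low ratio of replicate 3 went with low signal and with few called probes in the transcript. By mean scaled signal on replicates 1 and 2, the lincRNA ratio was 0.260 under 10, 0.346 at 10 to 20, 0.761 at 20 to 50 and 0.939 at 50 to 100. The precursor ratio was 0.595, 0.731, 0.813 and 0.842 in the same ranges, and the locus ratio was 0.871, 0.884, 0.947 and 0.999. Between 100 and 1000 the ratios were 0.988, 0.926 and 0.996. The scaling sets the arrays equal at a scaled signal of 100, and most probes above it are locus probes, so closeness to 1 there says nothing of stability. Among lincRNA units with 3 probes the ratio was 0.245 over 1489 probes where 1 probe was called on replicates 1 and 2, 0.347 over 992 where 2 were and 0.867 over 771 where all 3 were. The units with 1 called probe were also dimmer. At a mean scaled signal of 10 to 20 the 3 ratios were 0.246 over 341 probes, 0.303 over 254 and 0.818 over 177. For annotated loci the ratio was 0.367 over 31 probes where 1 was called and 0.990 over 1128 where all 3 were, and for precursors 0.223 over 20 and 0.864 over 42. The part of slide, sample and background in these ratios was not tested.

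**Figure D3:**
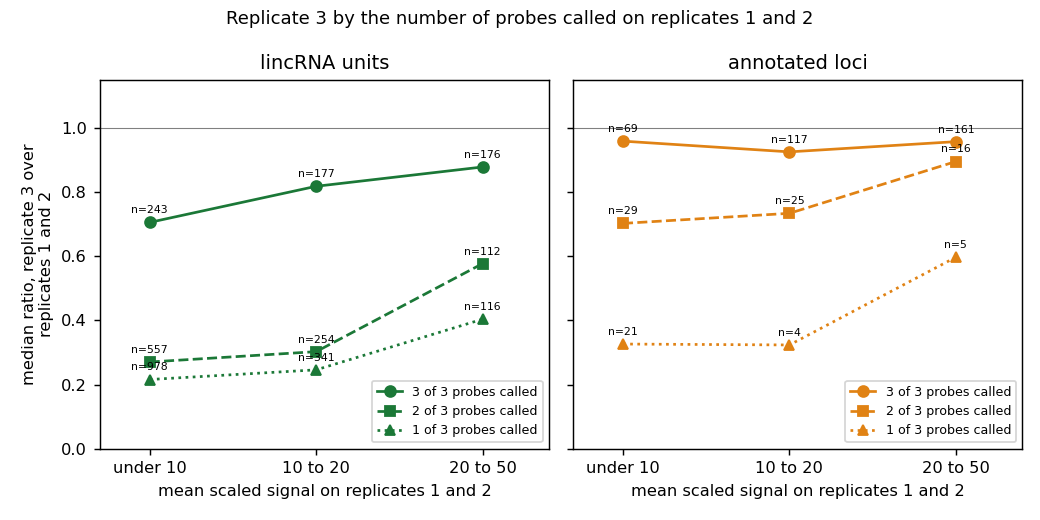
Median ratio of the scaled signal on replicate 3 to the geometric mean of replicates 1 and 2, for probes called on replicates 1 and 2, by mean scaled signal on those arrays (under 10, 10 to 20, 20 to 50), for lincRNA units (left) and annotated loci (right) with 3 probes; lines separate transcripts with 3, 2 or 1 probes called on replicates 1 and 2, and n counts probes. At 10 to 20 the ratio is 0.246 for lincRNA units with 1 called probe and 0.818 for those with 3.

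The lincRNA units with every probe detected reached from a level of 5.49 to one of 122172. AT2TU000020 held the top value, with 121867, 122412 and 122238 on replicates 1, 2 and 3, and none of its probes was called saturated. Its probes taken alone varied more than this level, with coefficients of variation of 7.97%, 4.89% and 6.38%. AT2TU000010 followed with 7887, 6729 and 6443. Both are the lowest-numbered units of chromosome 2, and their numbers place them before the first unit of that chromosome with a start in the probe names, at 72281 (the labels and file headers do not settle the genome build). In the gene order of chromosome 2 in RefSeq's TAIR10.1 table, a pair of ribosomal RNA genes, AT2G01010 and AT2G01020, holds places 3 and 4 counted from that same end. Whether the units and the ribosomal RNA genes share sequence was not tested.

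AT2TU004830 had levels of 2123, 2241 and 2327, and by its number lies on chromosome 2 between units that start at 1218632 and 1414514. AT1TU073080 had 1497, 1393 and 1536, on chromosome 1 between starts at 21710979 and 22128870. AT2TU058930 had 1374, 1263 and 1299, on chromosome 2 between starts at 16980435 and 17504550. In these units no array stood apart, and the coefficients of variation were 4.58%, 5.02% and 4.34%. The next in signal were AT1TU028770 (mean 627 ± 35.9), AT2TU034760 (585 ± 196), AT1TU076210 (434 ± 26.4), AT5TU080700 (312 ± 18.6) and AT5TU003890 (275 ± 29.8; SD, n = 3).

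AT2TU034760 was the exception in stability among these 10 units. Its first probe had 59.1, 68.9 and 287 on replicates 1, 2 and 3, so that the wide spread came from a high value on replicate 3. Its other probes had 647, 552 and 661, and 2822, 2676 and 2811, with no array standing apart.

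The largest spreads among fully detected units ran the other way, with replicate 3 low. AT1TU056850 had 18.4, 19.0 and 3.91, and all 3 of its probes were lowest on replicate 3. AT5TU065280 had 9.43, 5.97 and 2.70, and AT5TU017570 had 10.6, 7.93 and 3.29. The least spread was that of AT5TU089280, on chromosome 5 with a start at 25923914, which had 10.20, 10.22 and 10.21. Its coefficient of variation was the lowest of 202 units, although its probes taken alone had 10.4%, 5.77% and 6.54%. Detected lincRNA probes under a scaled signal of 10 had a median coefficient of variation of 28.6%, against 8.30% above 1000.

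The detected share of lincRNA probes differed little along the genome. It was 14.2%, 13.9%, 15.2%, 13.9% and 15.0% on chromosomes 1 to 5. When each chromosome's unit numbers were cut into 10 equal parts of their range and added over chromosomes, the share lay between 12.3% and 14.9% in the middle 8 parts, and at 18.4% and 17.0% in the first and the last. The end parts were above every middle one on replicates 2 and 3, at 35.8% and 34.0% on replicate 2 and 21.3% and 19.1% on replicate 3. On replicate 1 the second part, at 35.1%, was above both. A start was written in the probe annotation of 930 units, whose probes were detected in 12.0% of cases, against 15.1% for units without one. The lower share of the units with a start was seen on each array, at 29.3%, 28.4% and 14.3%, against 32.8%, 32.2% and 17.2%.

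**Figure D4:**
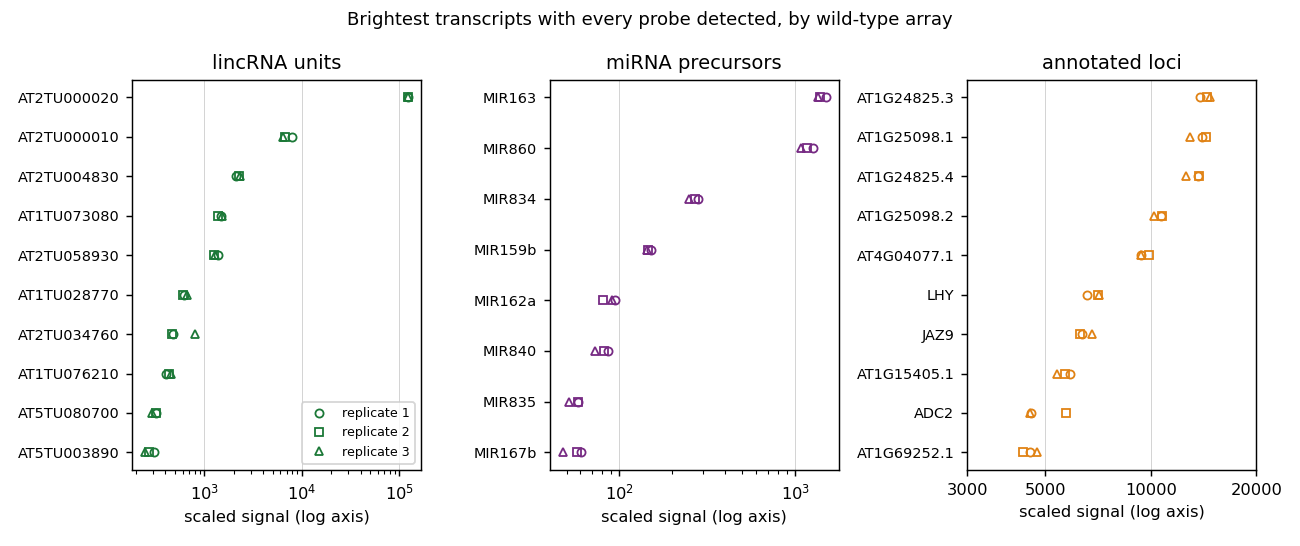
Scaled signal (log axis, a different range in each panel) of the 10 lincRNA units, 8 miRNA precursors and 10 transcripts of annotated loci with the highest mean level among those with every probe detected; symbols are wild-type replicates 1, 2 and 3. AT2TU034760 is the lincRNA unit with 1 array apart from the others, at 812 on replicate 3 and 476 and 467 on replicates 1 and 2.

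Among miRNA precursors, a single early-numbered one stood at the top. MIR163, whose miRNA targets methyltransferase genes, had levels of 1487, 1379 and 1345, and each of its 3 probes was above 1000 on every array. MIR860, measured with a single probe, had 1256, 1160 and 1081. MIR834 followed with 278, 268 and 249. All 3 precursors were highest on replicate 1 and lowest on replicate 3, with coefficients of variation of 5.27%, 7.51% and 5.65%.

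MIR159b, whose miRNA targets GAMYB-like MYB genes of the anther and the seed, had 152, 146 and 144 and the least spread of the class at 2.65%. MIR162a, whose miRNA targets the Dicer gene DCL1, had 94.2, 81.1 and 91.0. MIR840 averaged 80.0 ± 7.07, MIR835 55.9 ± 3.56 and MIR167b 55.0 ± 6.67. The precursors of the largest spread were MIR390a (11.1, 9.94 and 3.93), MIR157a (15.7, 17.5 and 6.50) and MIR172e (9.59, 7.79 and 3.56), all lowest on replicate 3.

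The 26 families of the fixed list, mostly conserved among plants, held 90 precursors, of which 52 (57.8%) had at least 1 probe detected and 37 (41.1%) had all. The 78 other families held 83 precursors, with 37 (44.6%) and 25 (30.1%). The listed precursors had fewer probes each, 153 in all against 178, which makes detection of every probe easier. Over probes the shares were 46.4% and 38.8%, and the listed families were higher on each array, at 56.9%, 63.4% and 52.3%, against 48.3%, 45.5% and 41.6%. The median level of the fully detected precursors was in the opposite order, 16.0 in the listed families and 20.5 in the others.

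Families that act on developmental regulators differed among themselves, and a precursor with at least 1 detected probe is called detected here, as 51.4% of all precursors were. MIR156, which targets the SPL genes of phase change and flowering, had at least 1 probe detected for 7 of 8 precursors, and MIR157, which targets the same genes, for 4 of 4. MIR156a, MIR156c, MIR156d and MIR156h lay close together, at means of 23.8, 20.9, 20.3 and 21.6. The other detected members did not all lie there. MIR156e had 24.7, 21.9 and 9.44, MIR156g averaged 7.12, and MIR156b, with 1 of 2 probes detected, averaged 3.31. MIR156f was not detected, at 0.670, 0.861 and 0.398. The lowest scaled signal that the software still called well above background was 3.21, 2.52 and 1.95 on the 3 arrays.

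MIR166, which targets the HD-ZIP III genes of organ polarity, was detected for 6 of 7 precursors, with MIR166a at 56.9, 54.9 and 44.3. MIR171, which targets the HAM genes of the meristem, was detected for 3 of 3, and MIR319, which targets TCP genes, for 3 of 3. MIR172, which targets the AP2-like genes of floral organ identity and flowering time, was detected for 2 of 5, against 51.4% of all precursors. MIR172b had 13.5, 12.9 and 14.3, and MIR172e is given above. MIR172a, MIR172c and MIR172d had means of 1.29, 0.709 and 1.07 and no detected probe. MIR164, which targets NAC genes of organ boundaries, had a detected probe for 1 of 3 precursors, MIR164b at a mean of 6.25.

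Families of the auxin pathway were detected in part. Of all precursors 51.4% had a detected probe, and of all precursor probes 42.3% were detected. MIR167, which targets the auxin response factor genes ARF6 and ARF8 of flower maturation, was detected for 3 of 3 precursors. Both MIR160a and MIR160c, whose miRNA targets other ARF genes, were detected, at 8.59 ± 0.779 and 19.3 ± 0.791, and MIR160b was not, at 0.731 ± 0.143. MIR393, which targets the auxin receptor gene TIR1 and its relatives, had 1 detected probe among 4, in MIR393b.

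The array also carried annotated-locus probes for 4 MIR167 genes, which gave a second measurement of the same precursors. MIR167a as the locus AT3G22886 had 28.2, 26.3 and 20.7, and 18.8, 19.6 and 9.50 under its precursor name. MIR167b as AT3G63375 had 50.5, 42.5 and 37.5, and 60.4, 57.0 and 47.6 under its precursor name. MIR167d as AT1G31173 had 13.8, 13.4 and 10.9, and 5.06, 4.11 and 4.51 under its precursor name. MIR167c, as AT3G04765, was measured by the locus probe alone, at 11.6, 9.54 and 8.95. Every one of these probes was detected, and all of the values but those of MIR167d under its precursor name were lowest on replicate 3.

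The families that plants use under nutrient shortage were detected in few probes, against 42.3% of all precursor probes. MIR399, which targets the phosphate regulator PHO2, had none of 8 probes detected over 6 precursors, MIR398 none of 3 over 3 precursors and MIR397 none of 2 over 2 precursors, the last 2 being families of copper shortage. MIR395, of sulfate shortage, had 1 of 6 probes detected, in MIR395e at 6.10, 4.34 and 4.27. MIR408, also a copper family, was the exception, with all 3 probes detected at 9.34, 6.67 and 3.92. MIR169, which targets NF-YA genes, had 4 of 38 probes detected over 14 precursors and no precursor with all of its probes. These counts turn in part on replicate 3. Without it, 13 of the 38 MIR169 probes were detected, among them both of MIR169i (8.75 and 6.69 on replicates 1 and 2, 0.508 on replicate 3), and 1 of the 8 MIR399 probes, in MIR399c (7.12 and 3.44, and 0.550 on replicate 3). The counts of MIR398, MIR397, MIR395 and MIR408 were the same without it. A probe that is not detected gives a bound at the background of this array and does not show that the precursor is absent.

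Precursors whose miRNAs act on the small-RNA pathway itself differed in detection and level. MIR168a, whose miRNA targets AGO1, had 38.2, 35.8 and 36.4, and MIR168b had 1 of 2 probes detected. MIR403, which targets AGO2, had 6.32, 4.89 and 5.34. MIR162a, at 94.2, 81.1 and 91.0, and MIR390a, whose miRNA triggers the phased small RNAs of TAS3, had every probe detected. MIR390b had none of its 2 probes detected, at 3.84, 3.85 and 2.07. MIR828, which triggers those of TAS4, averaged 9.70 with all 3 probes detected, and the TAS4 transcript itself had 2 of 3 probes detected at means of 13.0 and 13.2. MIR173, the trigger for TAS1 and TAS2, had 12.3 and 11.5 on replicates 1 and 2 and 1.29 on replicate 3, and was not detected on all 3.

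Among annotated loci, noncoding and protein-coding genes were detected alike. By RefSeq's kinds, which were found for 400 of the 405 loci, probes were detected for 85.7% of 672 probes of lncRNA genes, 85.3% of 430 probes of other noncoding RNA genes and 88.1% of 285 probes of protein-coding genes. Signals were less alike: the medians of the detected probes were 77.5 for lncRNA genes (77.3, 78.3 and 75.6 on replicates 1, 2 and 3), 103 for other noncoding genes (105, 103 and 107) and 467 for protein-coding genes (475, 452 and 473). The medians of the 3 kinds did not overlap across arrays. The high share of detected probes in annotated loci was therefore not that of the protein-coding genes alone.

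Of the 10 highest levels in annotated loci, 3 were of protein-coding genes (JAZ9, LHY and ADC2, given below), and 95 of the 479 transcripts in the class are protein-coding. AT1G24825.3 had 13853, 14504 and 14754, and AT1G24825.4 had 13594, 13726 and 12627. Other entries of the locus AT1G24825 held dimmer probes, also detected. The probe means were 212, 6014 and 9546 for AT1G24825.1, and 267, 295 and 6113 for AT1G24825.2. AT1G25098.1 had 13985, 14362 and 12911, and AT1G25098.2 had 10703, 10792 and 10221. AT1G24825 is not among the RefSeq loci and AT1G25098 is an lncRNA gene there, and whether probes of the one bind RNA of the other was not tested. AT4G04077.1, also an lncRNA gene, had 9374, 9863 and 9385. The noncoding RNAs AT1G15405.1 and AT1G69252.1 averaged 5652 ± 241 and 4533 ± 220. Each of the 7 transcripts given here from the 10 highest had a coefficient of variation under 6%.

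The protein-coding loci included genes of RNA-directed DNA methylation, the pathway in which RNA polymerase IV, RDR2 and DCL3 make small RNAs that guide DNA methylation. All 4 listed genes with probes had every probe detected, as 79.1% of all transcripts of annotated loci and 83.2% of the 95 protein-coding ones had, so this count lies near that background. NRPD1, the large subunit of polymerase IV, had 376, 363 and 391, and RDR2, the RNA-dependent RNA polymerase, had 543, 551 and 593. DCL3, the Dicer of the pathway, had 746, 749 and 610, and NRPE1, the large subunit of polymerase V, had 256, 251 and 165. The last 2 were lowest on replicate 3 and the others highest there. For NRPE1 this came from 1 probe, at 126, 135 and 36.0. Its other probes had 152, 141 and 151, and 878, 829 and 832.

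The other small-RNA genes on the array, 4 in number, also had every probe detected, against the same 79.1%. DCL1, the Dicer that cuts miRNA precursors, had 712, 714 and 767. DCL2 and DCL4, Dicers of antiviral defence and trans-acting small RNAs, averaged 392 ± 30.0 and 240 ± 13.7. AGO2, an Argonaute protein with a part in defence, averaged 483 ± 16.5, and no array stood apart for any of these genes.

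JAZ proteins repress jasmonate responses, which in flowers govern stamen maturation, and 4 of the 12 genes had probes. JAZ9 had 6366, 6278 and 6820, JAZ5 had 4246, 4252 and 4233, JAZ10 had 2874, 2883 and 2772, and JAZ6 had 2120, 2013 and 2309. All 12 of their probes were detected, against 86.3% of all probes of annotated loci, at a median of 4192. The probes of JAZ6 ranged from 249 to 6453. Those of JAZ5 varied more between arrays than its level, with coefficients of variation of 1.62%, 7.54% and 6.60%. Of the defence genes, WRKY40, a transcription factor gene induced by pathogens and wounding, had 2741, 2735 and 2450. PAD3, a cytochrome P450 gene of camalexin synthesis, had 123.7, 123.7 and 123.5, the least spread among fully detected annotated loci. Its probes taken alone varied more, with coefficients of variation of 6.15%, 1.69% and 5.46%.

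All 7 clock and light genes with probes had every probe detected, against 79.1% of all transcripts of annotated loci, among them both morning-expressed MYB factor genes. LHY had 6579, 7053 and 7144 and CCA1 had 2804, 2929 and 2849. TOC1, an evening-expressed repressor gene, averaged 1100.5 ± 37.7. PRR5, PRR7 and PRR9, the pseudo-response regulator genes that repress CCA1 and LHY during the day, averaged 1000.1 ± 19.4, 948 ± 50.1 and 307 ± 24.5 (SD, n = 3). HFR1, a bHLH gene of shade and far-red light responses, averaged 312 ± 24.1. The time of day at which the samples were taken is not in the labels, and the 3 arrays were close for all 7 genes.

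Light signalling genes beyond that list, collected after their values were seen, had every probe detected in 10 of 11 cases, against 79.1% of all transcripts of annotated loci. The photoreceptor genes PHYA and PHYB averaged 2299 ± 140 and 649 ± 17.9. The bHLH factor genes PIF1, PIF3, PIF4 and PIF5 averaged 173, 311, 435 and 1447. COP1, the ubiquitin ligase gene that represses light responses, averaged 1222 ± 57.2, and HY5, a bZIP factor gene that COP1 acts on, averaged 1394 ± 77.0. LAF1, a MYB factor gene of far-red signalling, had no probe detected, at 0.808, 0.855 and 0.516.

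Seed maturation genes, which act in the embryo, were detected in part. Every probe was detected for 2 of the 5 genes, against 79.1% of all transcripts of annotated loci. FUS3, a B3 factor gene of embryo maturation, had 93.5, 103 and 93.9. LEC1, an NF-Y subunit gene of early embryogenesis, had all 3 probes detected, at 5.31, 4.16 and 5.04. Its lowest probe, at 3.34 and 2.79 on replicates 1 and 2, lay close to the lowest called signals there, 3.21 and 2.52. EM1, a late embryogenesis protein gene, had 2 of 3 probes detected, and ABI3, a B3 factor gene of the abscisic acid response in seeds, had 1 of 3, at 13.9, 11.5 and 4.05. EM6, a second late embryogenesis protein gene, had none, at 0.706, 0.661 and 0.597. The array's genes for carpel, ovule and seed were FUS3, LEC1 and ABI3 again, so the list gives no separate check of the young siliques in the samples.

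Genes induced by cold and abscisic acid differed in the gap between their probes. COR47 held the widest on the array, as given above, and the highest over the lowest detected probe was 209-fold for COR15A, 81.9-fold for RD29A, 7.54-fold for KIN1 and 3.97-fold for RD29B. Outside this list JAZ6 reached 25.9-fold, DCL4 12.7-fold and NRPE1 8.55-fold, and a lincRNA unit reached 339-fold. COR15A, a chloroplast protective protein gene, had a probe at 11.6, 10.1 and 15.2, another at 1799, 283 and 2890, and the other one at 2717, 2450 and 2559. All 3 probes were lowest on replicate 2. The middle probe was so by far the most, and it gave COR15A the largest spread among fully detected annotated loci, 42.0%. COR47 had levels of 1538, 1335 and 1924, and RD29A, a stress-induced protein gene, had 52.1, 52.2 and 60.2. KIN1 and RD29B had 2 of 3 probes detected, with levels of 28.1, 26.7 and 25.3 for KIN1 and 9.09, 9.39 and 10.4 for RD29B. COR15A, COR47 and RD29A were each highest on replicate 3. After COR15A the largest spreads in the class were those of the lncRNA genes AT3G59695.1 (13.5, 8.11 and 6.40) and AT4G40085.2 (13.1, 9.67 and 5.79), both dim and lowest on replicate 3.

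Genes of abscisic acid signalling, also collected after their values were seen, had every probe detected in 4 of 5 cases, against the same 79.1%. The phosphatase gene ABI1 averaged 3438 ± 45.2, ABI2, its close relative, 614 ± 89.6, and the bZIP factor gene ABI5 2021 ± 86.8. ABI4, an AP2-type factor gene, had 1 of 3 probes detected. A further list, collected in the same way, held 8 genes named for embryo or embryo sac arrest in mutants. All 8 had every probe detected, near that background, with levels between MEE27 at 5.90 ± 2.05 and MEE23 at 1560 ± 109. Among 6 MYB factor genes, also collected after their values were seen, 4 had every probe detected, against that 79.1%. MYB3 was among them at 1478 ± 22.4, and MYB79 and MYB121 had no detected probe. ADC2, an arginine decarboxylase gene of polyamine synthesis, had 4572, 5735 and 4532 and was among the 10 highest annotated loci.

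**Figure D5:**
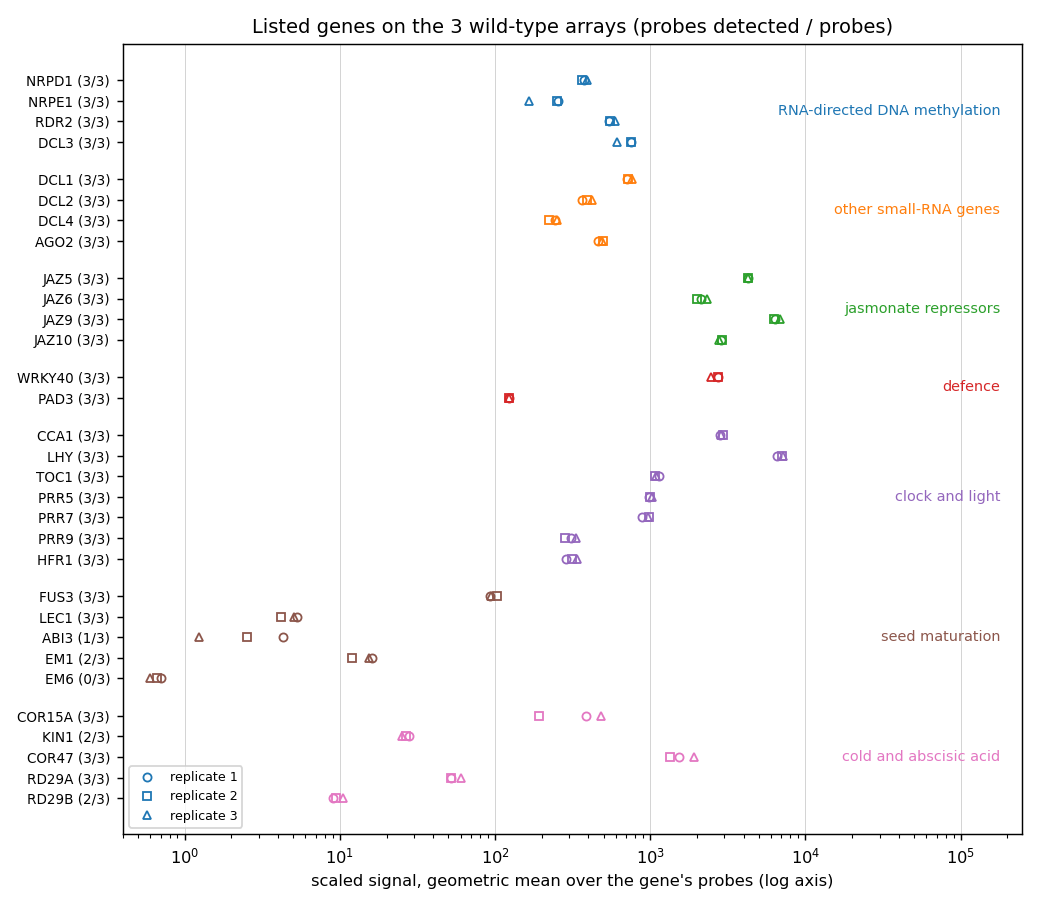
Level (scaled signal, geometric mean over all probes of the gene, log axis) of the 31 genes of 7 lists, on wild-type replicates 1, 2 and 3; brackets give detected probes of all probes. The 4 jasmonate repressor genes lie between 2013 and 6820 on every array, whereas the 5 seed maturation genes lie between 0.597 and 103.

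Some noncoding RNA genes with a name are on the array as well. GUT15, an unstable noncoding transcript, had 2694, 2683 and 2893. Both antisense RNA genes were dim but had every probe detected: AT1G68568.1 had 12.9, 13.3 and 10.6, and AT4G00975.1 had 13.3, 12.1 and 9.84. The pseudogene AT2G13431.1 had 319, 289 and 435.

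The limit of detection fell in the range where many lincRNA probes lay. The detected lincRNA probes nearest to it, in AT5TU011390 and AT5TU046750, had scaled signals of 1.95 and 1.95 on replicate 3, their lowest array. On the other side were a probe of AT2TU058900 (22.1, 31.4 and 4.44) and a probe of AT3TU037050 (4.79, 5.92 and 5.97), each called on 2 arrays. For precursors the nearest detected probes were in MIR169d and MIR408, at 2.07 and 2.09 on replicate 3. Those outside were in MIR169b (7.10, 11.2 and 3.39) and MIR171a (3.68, 4.60 and 4.92). For annotated loci the nearest detected probes were in AT3G24542.1 and AT4G15242.1, at 1.95 and 2.04 on replicate 3. Those outside were in AT1G30282.1 (3.90, 3.14 and 5.28) and AT1G15175.1 (3.91, 4.78 and 5.31). The call did not follow the scaled signal alone, and a probe outside could have a higher signal than one inside. On replicate 3 the probe of AT2TU058900 at 4.44 was not called, whereas probes at 1.95 were. How the software sets the call was not tested. The same call was made for 2, 1 and 1 of the 77 negative control spots on replicates 1, 2 and 3. The highest negative control signals were 9.93, 6.25 and 30.7 intensity units.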

How the data were processed

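Total RNA of 3 wild-type inflorescence samples was measured on one-colour Agilent arrays. Per the file headers, the authors extracted the scans with Agilent Feature Extraction 10.5.1.1, and the processed signal used here is an intensity after background correction within the array. The deposited value table holds log2 values of the same arrays. Its correlations with the log2 processed signal were 0.986, 0.990 and 0.998, and the slopes over 815 bright probes 0.997, 0.991 and 0.993, so the scale is log2. Its column medians were nearly equal, at 0.949, 0.949 and 0.949. The 75th percentiles of the processed signal over all probes differed, at 15.2, 10.3 and 4.73 intensity units. No label or header names the authors' normalization, and the step behind the equal medians was not tested. The values are levels and not ratios, so no direction is involved. Its 3 columns of other samples were not used.

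Replicates 1 to 3 are the 3 samples titled wild type, which the series' design text calls biological replicates. Control spots (536 per array) were left out. The software called 5686, 5618 and 3624 probes well above background on replicates 1, 2 and 3 and none saturated, and the number of arrays limits the precision. Signals were divided by the array's 75th percentile over the jointly detected probes and multiplied by 100. Shares have exact (Clopper-Pearson) 95% intervals. With 1 group there is no comparison between conditions and no test. Alternatives changed the detection rule, the scaling, the background correction, the source of values, the counted unit and the arrays used. The calculations were tested on simulated data with known answers. Python 3.11.15, numpy 2.4.6, pandas 2.3.3, scipy 1.17.1, R 4.3.3 and limma 3.58.1 (quantile and normexp, offset 50) were used.

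Named are the 10 lincRNA units, 8 precursors and 10 locus transcripts of highest mean level and, per class, the 3 of highest and the 1 of lowest coefficient of variation, among transcripts with every probe detected; the 2 probes per class nearest the detection limit on each side; and members of gene and miRNA family lists. The members and lists were chosen with earlier results of these data known. Exceptions named after their values were seen are GUT15, the antisense and pseudogene loci, MIR173, MIR828, the MIR167 loci, the precursors of the closing observations (MIR845b, MIR400, MIR397a, MIR775, MIR780, MIR839, MIR404, MIR822, MIR824 and MIR447a to MIR447c) and the lists so described. The comparison of each array with the other 2 was added after the data were seen, as were AT1G24825.1 and AT1G24825.2. Gene names come from RefSeq's TAIR10.1 table. Probe, miRNA and promoter sequences were not used here.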

Additional observations from a re-analysis of the deposited data

Results flagged for a closer look

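A probe outside the transcript classes gave a signal on a single array. The third probe named for the plus strand of the TMM promoter had a processed signal of 7.43 intensity units on replicate 2, above the highest of that array's 77 negative control spots (6.25), and 1.58 and 1.16 on replicates 1 and 3. On replicate 2, 1 of the 77 negative control spots was itself called well above background. Of the 9 promoter probes, 1 probe was called well above background on each array, a different one each time, and none on all 3.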

How the results depend on the processing

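The order of the detected shares (annotated loci, then miRNA precursors, then lincRNA units) held under every detection rule tried, while the shares themselves moved. For lincRNAs, precursors and loci they were 39.3%, 59.2% and 91.9% with a call on at least 1 array, 26.3%, 51.1% and 89.4% on at least 2, and 35.9%, 62.2% and 93.6% with the software's weaker flag for a significant positive signal. Counted over transcripts they were 28.9%, 51.4% and 93.1% with at least 1 probe detected and 4.49%, 35.8% and 79.1% with every probe. Leaving out each array gave 14.6 to 25.2%, 43.2 to 48.6% and 86.6 to 87.7%. The high lincRNA value is that without replicate 3, the array with the lowest call rate.

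The median scaled signal of annotated loci stayed above those of lincRNAs and precursors under every scaling. With the percentile taken over all probes the medians were 276, 394 and 2787, because most probes on the array are dim. With normexp background correction they were 39.4, 41.7 and 106, with probes called on at least 1 array 4.59, 8.75 and 95.7. The locus median was 114 under median scaling, 112 from the deposited table and 105 over transcripts. Leaving out each array gave 11.6 to 20.3, 16.3 to 34.3 and 111 to 242. Without replicate 3, 4754 probes were jointly detected and the percentile fell to 95.2 and 77.2 intensity units, which by construction raised all 180 named transcripts' levels by over 1.5 times. On the shared slide alone, the fold range between probes had medians of 2.26 and 1.71 for lincRNAs and precursors, and the coefficients of variation were 8.37%, 6.78% and 4.95%.

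The counts of transcripts with every probe detected, an alternative added after seeing the data, were 205 to 268, 64 to 68 and 380 to 390 with an array left out. Normexp moved 48 of 117 fully detected named transcripts and all 63 others by over 1.5 times, and quantile normalization moved none. Taking the highest probe of a transcript moved 41 and 35. Under the deposited values, 2 of the others moved so far, and without replicate 1 or replicate 2, 4 each; the cause was not tested. No paired analysis was possible because the values come from 1 group and from no test. Few arrays and a background close to the dim probes limit what can be said of transcripts under a scaled signal of about 20.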

Other observations

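Several precursors not detected on all 3 arrays had a high signal on 1 array alone. MIR845b had scaled signals of 2.35, 40.0 and 1.01 on replicates 1, 2 and 3, MIR400 had 10.7, 0.721 and 1.52, and MIR397a had 5.15, 0.551 and 0.469. They were chosen after their values were seen, each has a single probe, and each value stands on 1 spot of 1 array.

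Precursors of high family number, many of them known only from Arabidopsis and its relatives, were detected in part. Of the 83 precursors outside the fixed list, 25 had every probe detected and 46 had none, and those named here were chosen after their values were seen. MIR775, MIR780, MIR839 and MIR404 had every probe detected, at mean levels of 44.3, 43.9, 46.5 and 46.0. MIR404 had 38.7, 38.8 and 60.5 on replicates 1, 2 and 3 and was highest on replicate 3. MIR775 (45.6, 45.8 and 41.5) and MIR780 (45.4, 48.4 and 38.0) were lowest there, and MIR839 had 52.4, 41.6 and 45.7. MIR822 and MIR824, whose miRNA targets the MADS-box gene AGL16, averaged 26.6 ± 5.06 and 20.6 ± 1.78. MIR447a and MIR447b had every probe detected, at 17.5 ± 0.696 and 24.6 ± 3.32, and MIR447c had none, at 2.07 ± 0.942 (SD, n = 3).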
